A study of Mus musculus with 4 samples.

Results

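The transcripts described here encode the enzymes of hepatic fatty acid and triglyceride synthesis, the proteins that regulate these enzymes, and the lipase inhibitor G0S2. The 10 genes (Acaca, Acacb, Fasn, Scd1, Mlxipl, Insig1, Insig2, Lpin1, Lpin2 and G0s2) were chosen by name, and every m6A peak that the peak table assigns to them by overlap was taken. They held 17 of the 12815 distinct peaks of the table, which covered 7835 genes. All 10 genes had at least 1 peak, and 6 had more than 1.

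The series measured N6-methyladenosine (m6A) in liver mRNA of C57BL/6 mice on chow at 8 weeks of age. The flox group was Mettl3flox/flox, and the HKO group was Mettl3flox/flox with Alb-Cre, which removes floxed Mettl3 exons in hepatocytes. Both groups thus carried the floxed allele, and other liver cells of HKO mice were not the target of the deletion. Fragmented poly(A)+ RNA was sequenced after precipitation with an m6A antibody (IP) and without precipitation (input). Each of the 4 libraries (flox IP, flox input, HKO IP and HKO input) was a single library from RNA pooled over mice, so no difference below has a replicate check and no p-value is given.

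m6A is written on nascent mRNA by a methyltransferase complex whose catalytic subunit is METTL3, mostly in the last exon near the stop codon, and it marks many transcripts for faster decay. In the liver, acetyl-CoA carboxylase, fatty acid synthase and stearoyl-CoA desaturase make fatty acids from sugar carbon under the transcription factors ChREBP and SREBP-1c. Lipins then feed these fatty acids into triglycerides, and G0S2 keeps the stored triglycerides from being hydrolysed by adipose triglyceride lipase.

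The library totals were between 14972301 and 18365473 reads. Peak reads are given as RPM (reads plus 1 per 1000000 reads of the library), enrichment is IP RPM over input RPM of the same genotype, and a change of enrichment is the log2 ratio of HKO over flox. Intervals are 95% counting intervals from the reads of the libraries involved and do not cover variation between mice or libraries. Over the 17 peaks the reads per library ranged from 10 to 8259. Mettl3 itself has no listed peak, which leaves the deletion unchecked in these files. Every listed peak has enrichment above 1 in flox and in HKO. A peak with flox enrichment under 2 therefore could not be 2-fold lower in HKO, and a peak with HKO enrichment under 2 could not be 2-fold higher.

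A lower enrichment in HKO, by 2-fold or more, was found at 3 of the 17 peaks (17.6%), against 24.3% of all peaks in the table. These 3 peaks were both peaks of Acaca and the peak of Acacb, all in the 3' UTR. Enrichment was at least 2-fold higher at 1 peak (5.88%), in the 5' UTR of G0s2, against 6.25% of all peaks. Both shares were near or under those of the whole table. The median log2 change was 0.18 over the 17 peaks and -0.04 over all peaks. The interval lay below 0 at 4 peaks, above 0 at 8, and included 0 at 5. Below 0, the second Acaca peak, the Acacb peak and the Lpin2 3' UTR peak were called in flox alone. Above 0, the Scd1 3' UTR, Mlxipl intron, downstream Lpin1 and Lpin2 coding sequence peaks were called in HKO alone. The directions of these peaks are in part fixed by the calling. When the libraries were scaled by their reads in peaks, which shifts the median of all peaks by 0.27, Acacb no longer reached 2-fold while the Mlxipl intron and Lpin2 coding sequence peaks did, so that 2 peaks were lower and 3 higher.

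The sequences around GGACT, a frequent form of the METTL3 consensus, are shown first for the peaks that moved by at least 2-fold and for Insig1, which has the motif and hardly moved. They are taken from GENCODE vM21 transcripts (GRCm38), are written 5′ to 3′ on the transcript strand, and have the motif in capitals.
Acaca 3' UTR 1, upstream motif: ttcccatgcacaGGACTgagaaggcaatg
Acaca 3' UTR 1, downstream motif: tagactaaagcaGGACTgccctccgtcct
Acacb 3' UTR: caagtggagcaaGGACTggacctccgtgc
Insig1 3' UTR 1: aaatggaggcaaGGACTgcttacctaaaa
G0s2 start: caaaagatataaGGACTctgttcacagag
The motif adenosines lay at positions 84399928 and 84399988 of chromosome 11 for Acaca, and at 114250298 and 28076980 of chromosome 5 for Acacb and Insig1. That of G0s2 lay at 193273130 of chromosome 1. The Acacb motif was 17 nt from the nearest deposited peak summit, the Insig1 motif 39 nt, the Acaca motifs 116 and 56 nt, and the G0s2 motif 76 nt. These were the only GGACT matches, 5 in 4 of the 16 peaks that could be placed on a coding transcript (25%), against 38.4% of all 10881 placed peaks. The wider consensus DRACH (D is A, G or T, R is A or G, and H is A, C or T) matched in 15 of the 16, against 96.4% of all placed peaks. GGACT was present in 54.3% of all 3' UTR peaks, and 46.9% of those with it were at least 2-fold lower in HKO, against 25.6% of those without it. Of the 7 peaks here in the 3' UTR, the Acacb peak and the upstream peaks of Acaca and Insig1 had GGACT. A match is a description of the sequence and not a mapped methylation site.

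**Figure D1:**
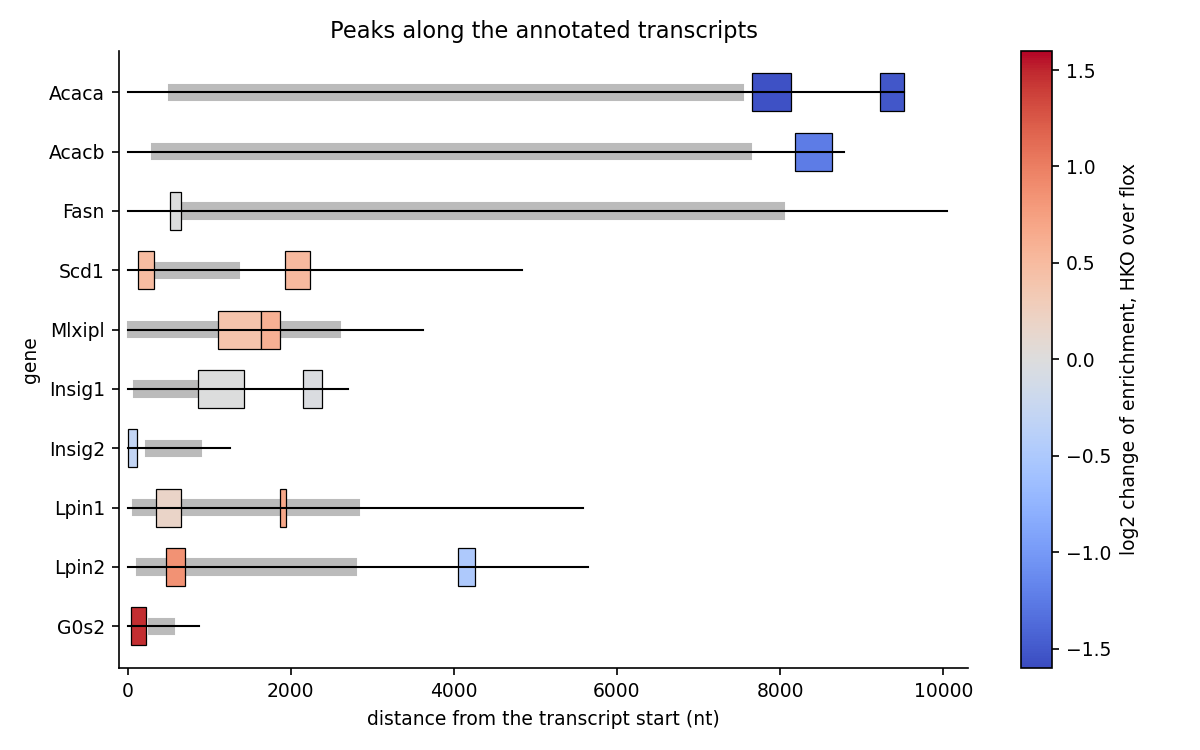
Peaks along the annotated transcripts of the 10 genes. The horizontal axis is the distance from the transcript start in nt, the black line is the transcript, the grey bar the coding sequence and each box a peak, coloured by its log2 change of enrichment in HKO over flox. The lowest changes are in the 3' UTRs of Acaca and Acacb (-1.55, -1.52 and -1.24) and the highest is at the start of G0s2 (1.46), while the intronic peak of Mlxipl is not drawn.

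Acaca (ENSMUSG00000020532) encodes the cytosolic acetyl-CoA carboxylase, which makes malonyl-CoA, the building block of fatty acids. Its upstream peak (chr11:84399798-84400270, GRCm38, + strand) lay in the 3' UTR with its middle 353 nt past the stop codon. It held 980 IP and 192 input reads in flox and 592 IP and 432 input reads in HKO. The IP reads were thus lower in HKO while the input reads were higher. Flox enrichment was 4.28-fold (3.67 to 4.99) and HKO enrichment 1.46-fold (1.29 to 1.65), which do not overlap, and the log2 change was -1.55 (-1.84 to -1.27). Taken apart, IP RPM changed by -0.68 on the log2 scale (-0.83 to -0.53) and input RPM by 0.87 (0.63 to 1.12), so the input made up the larger share of the difference in the ratio.

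The second Acaca peak (chr11:84401361-84401653) reached the annotated end of the transcript, with its middle 1825 nt past the stop codon. It held 604 IP and 141 input reads in flox and 442 IP and 376 input reads in HKO. Enrichment went from 3.59-fold (2.99 to 4.31) in flox to 1.25-fold (1.09 to 1.44) in HKO, which is -1.52 on the log2 scale (-1.85 to -1.19). IP RPM changed by -0.40 (-0.58 to -0.23) and input RPM by 1.11 (0.84 to 1.39), the same opposed movement as at the upstream peak. The changes of both peaks differed by 0.03 (-0.40 to 0.47), less than the counting error. The 2 peaks differed in sequence, since the second held no GGACT and 6 DRACH matches, while the upstream peak held 2 GGACT among 11 DRACH matches. The DRACH match nearest to the summit of the second peak, 4 nt away, and its GGACA match, 68 nt away, are shown because this peak changed as much without that motif.
Acaca 3' UTR 2, nearest match: ccagactggcttGAACTgagattgccata
Acaca 3' UTR 2, downstream match: tgagagttcgatGGACAcacacgccagcg

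Acacb (ENSMUSG00000042010) encodes the mitochondrial acetyl-CoA carboxylase, whose malonyl-CoA restrains the entry of fatty acids into mitochondria. Its only peak (chr5:114250151-114250613, + strand) lay in the 3' UTR, with its middle 764 nt past the stop codon, and held 1 GGACT and 14 DRACH matches. It held 489 IP and 160 input reads in flox and 106 IP and 104 input reads in HKO. Both fractions were lower in HKO, the IP more so. IP RPM changed by -2.15 (-2.45 to -1.85), the lowest of the 17 peaks, and input RPM by -0.91 (-1.27 to -0.56). Flox enrichment was 2.56-fold (2.14 to 3.06) and HKO enrichment 1.09-fold, where the interval of 0.83 to 1.42 includes 1, and the log2 change was -1.24 (-1.70 to -0.77). The carboxylase transcripts thus had lower enrichment together, with input reads that went in opposite directions. The Acacb peak and the second Acaca peak were called in flox alone, so the direction of both is in part fixed by the calling. The upstream Acaca peak was called in both genotypes.

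**Figure D2:**
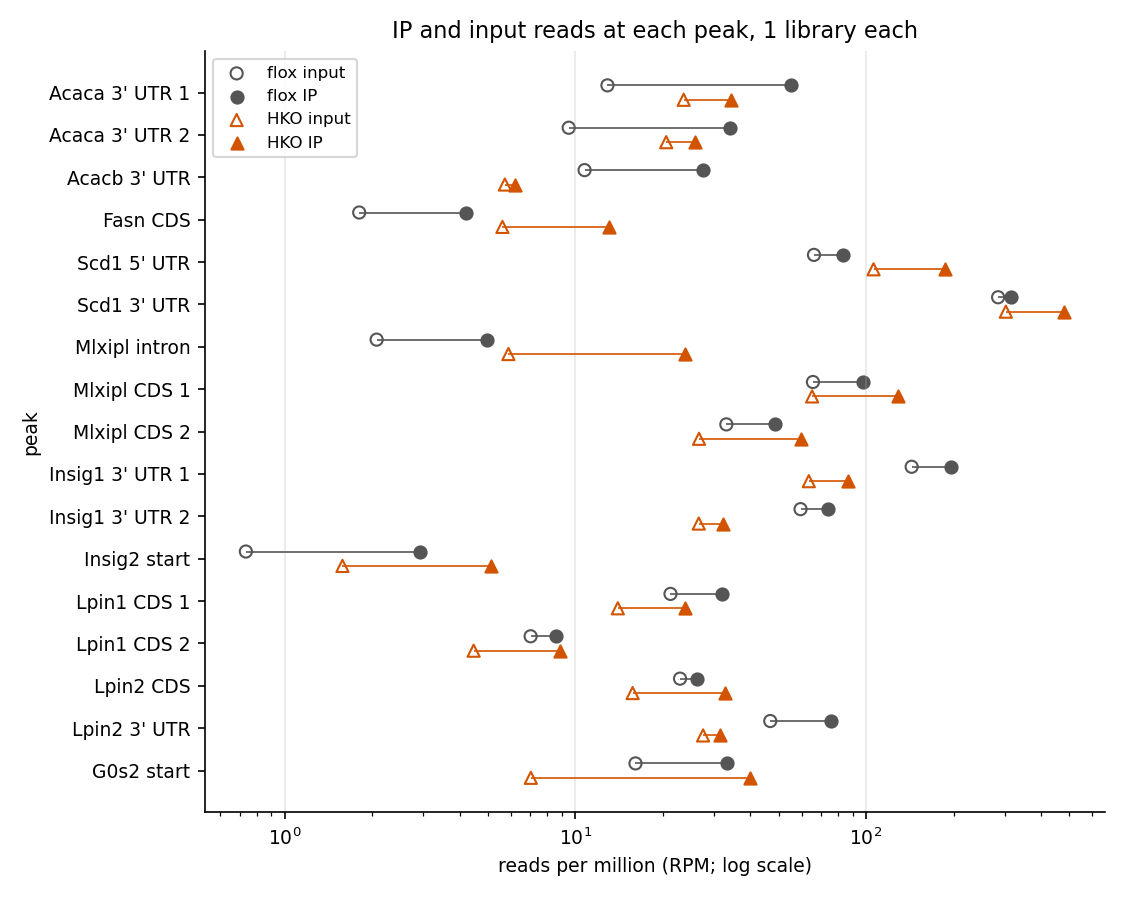
IP and input RPM at each of the 17 peaks, on a log scale, with 1 library per symbol. Circles are flox and triangles HKO, filled symbols are IP and open symbols input, and the length of the line that joins them is the enrichment. The flox lines of Acaca and Acacb are longer than the HKO lines, as for Acacb (2.56-fold against 1.09-fold), and the HKO line of G0s2 is longer than its flox line.

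Fasn (ENSMUSG00000025153) encodes fatty acid synthase, which builds palmitate from malonyl-CoA. Its only peak (chr11:120822664-120822948, - strand) spanned the start codon, from nt 519 to nt 654 of the transcript with the coding sequence starting at nt 528. It was among the thinnest of the peaks, with 74 IP and 26 input reads in flox and 224 IP and 102 input reads in HKO. IP RPM was 3.10-fold higher in HKO and input RPM 3.11-fold higher, so both fractions moved together. Enrichment went from 2.34-fold (1.51 to 3.63) in flox to 2.33-fold (1.84 to 2.94) in HKO, which is -0.01 on the log2 scale (-0.72 to 0.71). The interval is wide, so a moderate change in either direction was not detectable at this depth.

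Scd1 (ENSMUSG00000037071) encodes the liver stearoyl-CoA desaturase, which introduces a double bond into saturated fatty acids. Its 5' UTR peak (chr19:44407350-44407577, - strand) held 1476 IP and 990 input reads in flox and 3224 IP and 1948 input reads in HKO. Its 3' UTR peak (chr19:44397052-44397358) held 5616 and 4262 reads in flox and 8259 and 5558 in HKO. These peaks held the most HKO IP reads of the 17, but their enrichment was low. In the 5' UTR it went from 1.25-fold in flox to 1.76-fold in HKO, and in the 3' UTR from 1.11-fold to 1.58-fold. The log2 changes were 0.49 (0.35 to 0.63) and 0.51 (0.44 to 0.59), both upward and apart by 0.02 (-0.14 to 0.18). The input changed less at the 3' UTR peak, by 0.09 (0.03 to 0.15), than at the 5' UTR peak, by 0.68 (0.57 to 0.79), and the IP changed by 0.60 and 1.17. The 3' UTR peak was called in HKO alone, so its direction is in part fixed by the calling.

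Mlxipl (ENSMUSG00000005373) encodes ChREBP, a glucose-responsive transcription factor for lipogenic genes. Of its 3 peaks, 1 lay in an intron (chr5:135122950-135123460) and also overlapped Gm43500, an annotated gene on the opposite strand, so the reads of both cannot be told apart where strand is not known. It held 87 IP and 30 input reads in flox and 410 IP and 107 input reads in HKO. All 3 peaks had higher enrichment in HKO, although the upstream coding sequence peak changes sign when all changes are centred on peaks at transcript starts, a shift of -0.46. At the intronic peak it went from 2.39-fold to 4.06-fold, a change of 0.76 (0.10 to 1.43), with IP RPM changed by 2.27 (1.94 to 2.60) and input RPM by 1.51 (0.93 to 2.08). The intronic peak was called in HKO alone, so its direction is in part fixed by the calling.

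The coding sequence peaks of Mlxipl were deeper. The upstream one (chr5:135132334-135132861, + strand) held 1738 IP and 982 input reads in flox and 2225 IP and 1197 input reads in HKO, and the downstream one (chr5:135133107-135133506) held 861 and 494 in flox and 1027 and 488 in HKO. Their enrichment went from 1.49-fold to 1.98-fold and from 1.47-fold to 2.24-fold, with log2 changes of 0.41 (0.26 to 0.56) and 0.61 (0.39 to 0.83). These peaks adjoin on the spliced transcript, and their changes differed by 0.20 (-0.07 to 0.47). The downstream peak was the only placed peak of the 16 without a DRACH match. At the upstream peak IP RPM changed by 0.40 (0.31 to 0.49) and input RPM by -0.01 (-0.13 to 0.11). At the downstream peak IP RPM changed by 0.30 (0.17 to 0.43) and input RPM by -0.31 (-0.49 to -0.13), so IP and input moved apart by about equal steps.

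Insig1 (ENSMUSG00000045294) and Insig2 (ENSMUSG00000003721) encode endoplasmic reticulum proteins that retain the SREBP escort protein SCAP and so hold back lipogenic and sterol synthesis genes. Insig1 had 2 peaks in its 3' UTR. The upstream peak (chr5:28076829-28077388, + strand) held 3490 IP and 2148 input reads in flox and 1490 IP and 1166 input reads in HKO, and the downstream one (chr5:28078118-28078351) held 1314 and 890 in flox and 555 and 487 in HKO. Every count was lower in HKO. IP RPM changed by -1.18 and -1.20 and input RPM by -1.18 and -1.16, so the ratio hardly moved. Enrichment was 1.37-fold and 1.36-fold at the upstream peak and 1.24-fold and 1.21-fold at the downstream peak. The log2 changes were -0.01 (-0.14 to 0.13) and -0.03 (-0.25 to 0.18), narrow intervals that leave out a 2-fold change. Enrichment under 2 in flox and in HKO did not allow such a change in either direction in any case.

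The Insig2 peak (chr1:121327564-121327756, - strand) covered the first 115 nt of the annotated transcript, in the 5' UTR. It was the thinnest of the 17, with 51 IP and 10 input reads in flox and 87 IP and 28 input reads in HKO. Enrichment was 3.98-fold (2.08 to 7.63) in the flox pool and 3.23-fold (2.13 to 4.92) in the HKO pool, which overlap. The log2 change of -0.30 (-1.42 to 0.82) could not be told from 0 at this depth. Its input RPM was 2.15-fold higher in HKO, with a log2 change of 1.10 (0.10 to 2.11), the reverse of Insig1.

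Lpin1 (ENSMUSG00000020593) and Lpin2 (ENSMUSG00000024052) encode phosphatidate phosphatases, which make the diacylglycerol used for triglycerides. Lpin1 had 2 peaks in its coding sequence. The upstream one (chr12:16576947-16577257, - strand) held 565 IP and 317 input reads in flox and 408 IP and 256 input reads in HKO, and the downstream one (chr12:16553838-16554139) held 152 and 104 in flox and 151 and 81 in HKO. Enrichment went from 1.5-fold to 1.70-fold at the upstream peak, a log2 change of 0.18 (-0.12 to 0.48), and from 1.23-fold to 1.98-fold at the downstream peak, a change of 0.69 (0.16 to 1.22). Both went up, the second beyond its counting error, and they differed by 0.51 (-0.10 to 1.12). Input RPM was lower in HKO at both, with log2 changes of -0.60 and -0.65. The change of the upstream peak turns negative when all changes are centred on peaks at transcript starts. The downstream peak was called in HKO alone, so its direction is in part fixed by the calling.

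The peaks of Lpin2 changed in opposite directions. The coding sequence peak was called in HKO alone and the 3' UTR peak in flox alone, so each entered the table through the genotype in which its enrichment was higher, and the directions are in part fixed by the calling. Its coding sequence peak (chr17:71225012-71225285, + strand) held 466 IP and 342 input reads in flox and 562 IP and 288 input reads in HKO. Its 3' UTR peak (chr17:71248223-71248436), 1360 nt past the stop codon, held 1341 and 700 reads in flox and 542 and 504 in HKO. The IP reads were thus higher in HKO at the upstream peak and lower at the downstream peak, while the input was lower at both. Enrichment went from 1.15-fold to 2.08-fold in the coding sequence, a log2 change of 0.86 (0.57 to 1.14), and from 1.61-fold to 1.15-fold in the 3' UTR, a change of -0.49 (-0.71 to -0.27). The difference of 3' UTR minus coding sequence was -1.35 (-1.71 to -0.99), while the input changes of the same peaks differed by -0.23. Both peaks also overlap Gm26561, a long noncoding gene annotated on the same strand, so its reads cannot be separated from those of Lpin2. Neither held GGACT. A DRACH match 23 nt from the summit of the coding sequence peak and 1 that was 18 nt from a summit of the 3' UTR peak are shown for this contrast. They are not the nearest, since other matches lay at 18 nt in the coding sequence peak and at 9 and 14 nt in the 3' UTR peak.
Lpin2 CDS: gaagtgcaaacaGGACAataggaaggagg
Lpin2 3' UTR: agttgaatgcagAGACCttggtaacaatg

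G0s2 (ENSMUSG00000009633) encodes a small protein that binds and inhibits adipose triglyceride lipase. Its only peak (chr1:193272900-193273179, - strand) covered nt 39 to nt 229 of the 871 nt transcript, upstream of the start codon at nt 258. It held 588 IP and 240 input reads in flox and 686 IP and 128 input reads in HKO, or 33.1 and 16.1 RPM in flox and 39.9 and 7.02 RPM in HKO. The IP was higher in HKO and the input was lower. Enrichment went from 2.06-fold (1.77 to 2.39) in flox to 5.68-fold (4.70 to 6.85) in HKO, which is 1.46 on the log2 scale (1.12 to 1.81). Taken apart, IP RPM changed by 0.27 (0.11 to 0.43) and input RPM by -1.20 (-1.50 to -0.89), so most of the change lay in the denominator. The peak also lies in an intron of Lamb3, a laminin gene on the opposite strand, and reads of both cannot be told apart without strand.

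**Figure D3:**
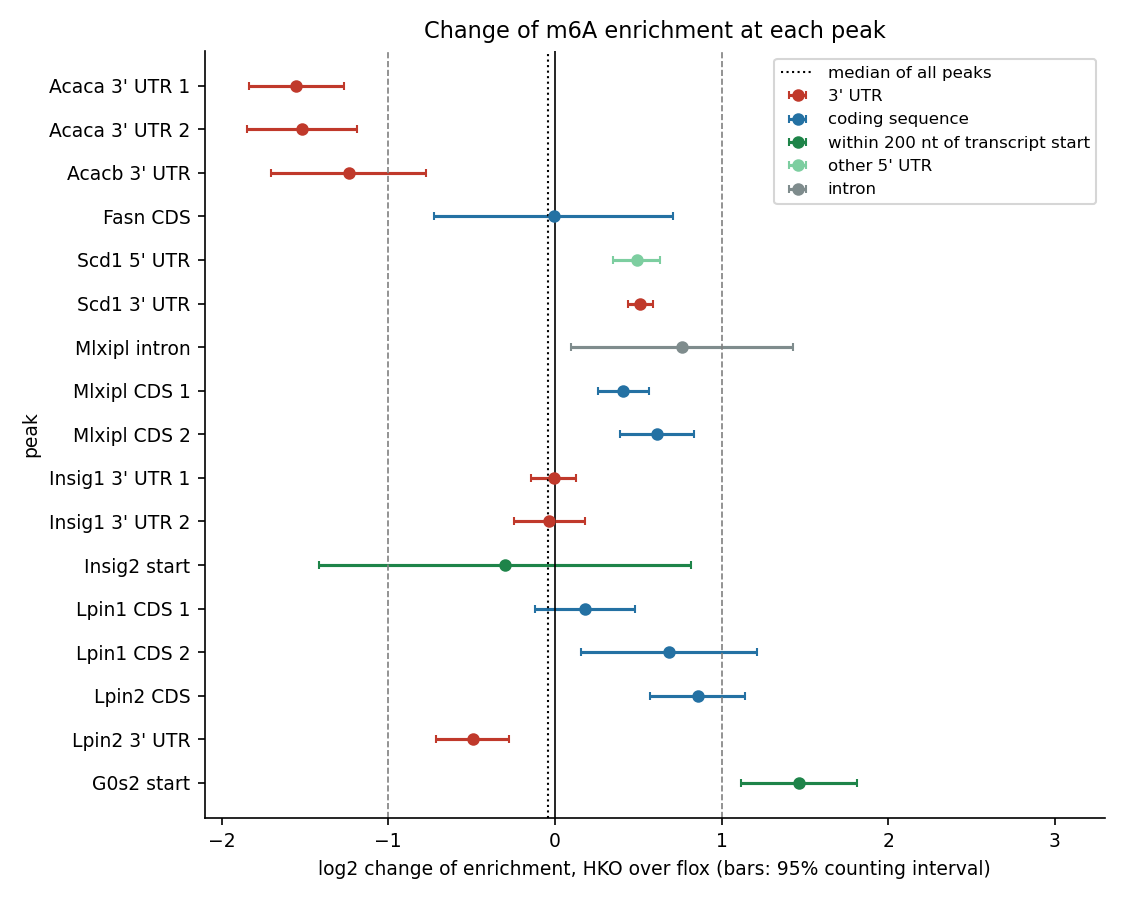
Log2 change of enrichment (HKO over flox) at each of the 17 peaks, coloured by position on the transcript. Bars are 95% counting intervals, dashed lines mark 2-fold, the solid line 0 and the dotted line the median of all peaks (-0.04). The peaks of Acaca and Acacb lie left of the 2-fold line, that of G0s2 lies right of it, and 13 peaks lie between.

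By position, 7 of the peaks lay in the 3' UTR, 6 in the coding sequence, 2 within 200 nt of the transcript start (Insig2 and G0s2) and 1 elsewhere in the 5' UTR, and the Mlxipl intron peak was not placed. None of the 17 had its middle within 200 nt of the stop codon, against 2649 of the 10881 placed peaks of the table. In the 3' UTR, 3 of the 7 were at least 2-fold lower, against 37.2% of all 3' UTR peaks. They were the 3 of the 7 with flox enrichment of at least 2, so the 4 peaks of Scd1, Insig1 and Lpin2 could not have reached this size. None was 2-fold higher, against 3.85%, but all 7 had HKO enrichment under 2 and could not have been. The median log2 change was -0.49 over these 7 and -0.70 over all 3' UTR peaks. In the coding sequence 0 of the 6 were 2-fold lower, against 20.7% of all coding sequence peaks, but only Fasn had the flox enrichment of 2 that such a change needs, so this count says little. None was 2-fold higher, against 7.11%, a size open only to Fasn, the downstream Mlxipl peak and the Lpin2 peak by their HKO enrichment. Of the 6 changes 5 were above 0, with a median of 0.51 against 0.12. Of those above 0, the downstream Lpin1 peak and the Lpin2 peak were called in HKO alone, so their directions are in part fixed by the calling. Of all peaks at transcript starts, 1.53% were at least 2-fold lower and 11% at least 2-fold higher, and the median change was 0.46.

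Flox enrichment of these peaks was mostly below the median of the table. The median was 1.5-fold over the 17 peaks and 2.84-fold over all peaks, and 7 of the 17 reached 2-fold, against 70.1% of all peaks. In HKO the medians were 1.76-fold and 2.31-fold, and 6 of the 17 reached 2-fold, against 61.6%. Among the 7 peaks that could have been 2-fold lower, 3 were, against 34.7% of such peaks in the table. Among the 6 that could have been 2-fold higher, G0s2 was, against 10.1%. The table marks 7 of the 17 peaks as called in both genotypes, 4 in flox alone and 6 in HKO alone, against 46.2%, 22.5% and 31.3% of all peaks. The peaks called in flox alone were the second of Acaca and of Insig1, that of Acacb and the 3' UTR peak of Lpin2. Those called in HKO alone were the peaks of Fasn and Insig2, the 3' UTR peak of Scd1, the intron of Mlxipl, the downstream peak of Lpin1 and the coding sequence peak of Lpin2.

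The input reads, summed over the peaks of a gene, give the abundance of that stretch of the transcript and not of the whole mRNA. They were at least 2-fold higher in HKO for 2 of the 10 genes, against 13.4% of all genes, and at least 2-fold lower for 2, against 4.47%. Fasn had the highest log2 change, 1.64 (1.03 to 2.25), followed by Insig2 at 1.10 (0.10 to 2.11) and Acaca at 0.98 (0.80 to 1.17). The intervals of these 3 overlap. G0s2, at -1.20 (-1.50 to -0.89), and Insig1, at -1.17 (-1.26 to -1.09), were lowest and overlap as well. Acacb (-0.91), Lpin2 (-0.69) and Lpin1 (-0.61) were also lower with intervals below 0, Scd1 was higher at 0.22 (0.17 to 0.27), and Mlxipl was at -0.04. The median was -0.33 over the 10 genes and 0.21 over all genes. In whole liver, fewer cells of a type and less RNA per cell cannot be told apart in such values. Some peaks lie in part outside the exons of their transcript. Examples are Fasn (136 of 284 nt exonic), Insig2 (115 of 192), G0s2 (191 of 279) and the downstream peaks of Mlxipl (225 of 399) and Lpin1 (80 of 301). Their input reads need not all come from spliced mRNA. By quantitative PCR in livers of the same genotypes and age, the study reported lower Fasn and Chrebp (Mlxipl) mRNA in HKO. Scd1 mRNA had no significant change there. The higher Fasn input, from 26 flox and 102 HKO reads under 1 peak, went the other way. It does not show that Fasn mRNA was higher, and the reason for the difference was not tested.

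**Figure D4:**
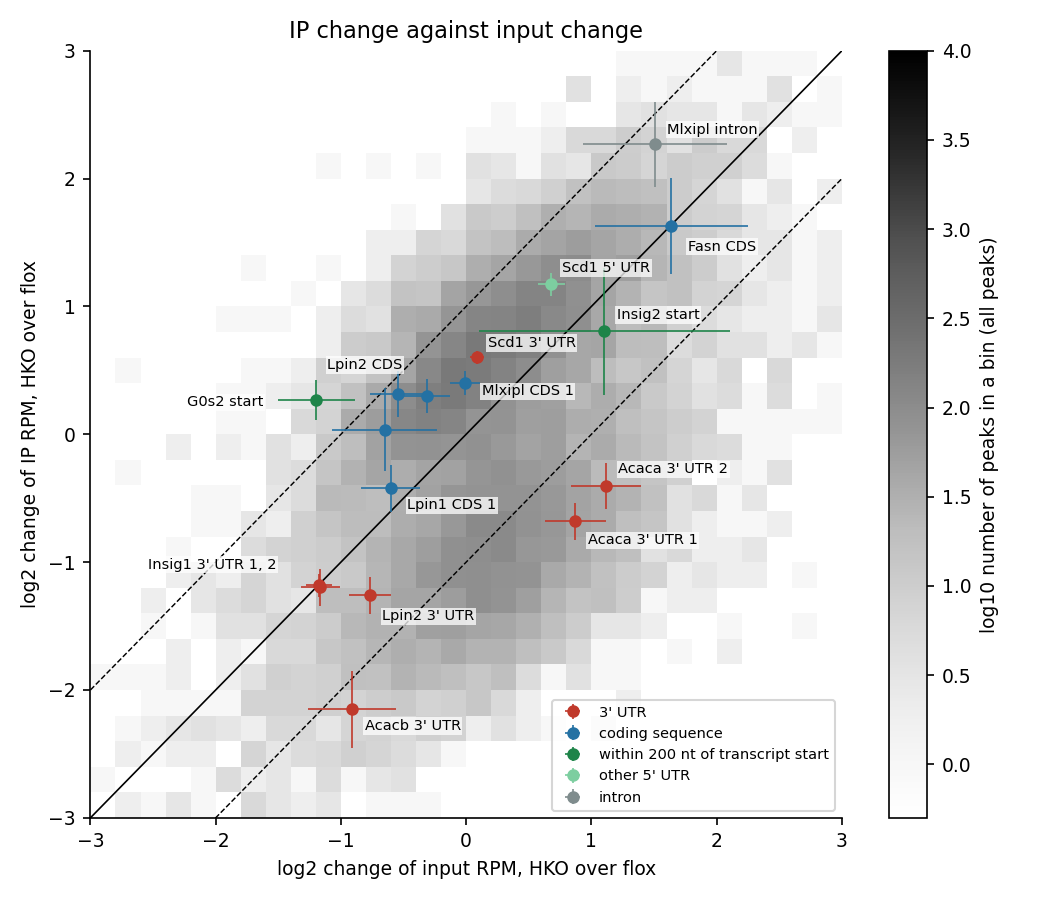
Log2 change of IP RPM (vertical) against log2 change of input RPM (horizontal), HKO over flox, for the 17 peaks over a grey density of all peaks within the axes. Error bars are 95% counting intervals, the solid line marks equal change and the dashed lines a 2-fold change of enrichment. Insig1 and Fasn lie on the solid line, Acaca lies below the lower dashed line with an input change of 0.87 at its upstream peak, and G0s2 lies above the upper dashed line with an input change of -1.20.

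In the plot of IP against input change, the distance from the solid line is the change of enrichment. The Acacb peak lay below the line through its lower IP, both Acaca peaks through a lower IP and a higher input, and G0s2 lay above it through its lower input. Insig1 and Fasn lay on the line far from the origin in opposite directions. The IP and input reads under their peaks changed, and the ratio did not change beyond counting error. Since input is the denominator, enrichment and input are not independent measures.

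Other genes of lipid metabolism were taken from 3 lists and valued by the peak with the most IP reads. By that peak, 30.3% of all genes were lower in HKO by 2-fold or more and 4.28% were higher, and the median log2 change was -0.30. Of 27 genes of fatty acid synthesis and its regulation 14 had a peak, of which 2 were lower (Elovl1 and Usf1) and 0 higher, with a median of -0.13. Srebf1, which encodes SREBP-1c, is on this list but had no listed peak. The study reported significant decreases of its m6A peaks and its mRNA in HKO, which could not be examined here. At Elovl1, a fatty acid elongase, input RPM changed by 0.83 (0.63 to 1.02) and enrichment by -1.46 (-1.69 to -1.23). Another elongase, Elovl2, had a change of enrichment of -0.48 (-0.69 to -0.28). Pklr, which encodes the liver pyruvate kinase and is a target of ChREBP, had 0.41 (0.21 to 0.61), and the desaturase gene Fads2 had 0.34 (0.13 to 0.55). Usf1, a transcription factor gene named after its value was seen, had -1.15 (-1.48 to -0.82).

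Of 14 glycerolipid synthesis genes 5 had a peak, of which 3 were lower and 0 higher, with a median of -1.0. Agpat2, an acyltransferase that makes the phosphatidate used by lipins, held 5836 IP and 1778 input reads in flox and 4754 and 4878 in HKO. Its input RPM changed by 1.16 (1.08 to 1.24), the larger share of its change of enrichment. That change was -1.41 (-1.51 to -1.32), to an enrichment of 1.04-fold. Agpat3 had -1.02 (-1.21 to -0.83), the glycerol-phosphate acyltransferase gene Gpat4 had -1.0 (-1.16 to -0.85), and Agpat1 had -0.65 (-1.21 to -0.10). The changes of Agpat3 and Gpat4 lie at the 2-fold line, and their intervals include smaller changes. The Gpat4 peak was called in flox alone, so its direction is in part fixed by the calling. The lipins, which act after these acyltransferases, had changes from -0.49 to 0.86 over all their peaks, not only the peak with the most IP reads. Their flox enrichments of 1.15-fold to 1.61-fold did not allow a 2-fold lower value. Those of Agpat2, Agpat3 and Gpat4 were 2.76-fold, 3.98-fold and 2.59-fold, so the lipins and these genes cannot be compared by this size.

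Of 22 genes of lipolysis and lipid droplets 15 had a peak, of which 5 were lower and 0 higher, with a median of -0.12. The strongest peaks by IP reads were in Ces3a (-0.29, -0.36 to -0.23), Cideb (0.32, 0.18 to 0.47), Hsd17b13 (0.49, 0.34 to 0.64) and Ces1f (0.53, 0.36 to 0.71), none of them 2-fold. Their flox enrichments were all under 2, so none could have been 2-fold lower. Only Cideb, with an HKO enrichment of 2.20-fold, could have been 2-fold higher. The peaks of Hsd17b13 and Ces1f were called in HKO alone, so their directions are in part fixed by the calling. The 5 lower genes were named after their values were seen. Of their peaks, those of Plin4, Cidec, Lipe and Abhd5 were called in flox alone, so their directions are in part fixed by the calling. That of Hilpda was called in both genotypes. Plin4, which encodes a lipid droplet protein, had -2.71 (-3.26 to -2.17). The lipid droplet protein genes Cidec and Hilpda had -1.46 (-2.60 to -0.31) and -1.05 (-1.68 to -0.42). The Hilpda peak held 164 IP and 35 input reads in flox and 170 and 97 in HKO, so its change lay in the input. The hormone-sensitive lipase gene Lipe had -1.30 (-2.08 to -0.52), and Abhd5, which encodes the activator of adipose triglyceride lipase, had -1.12 (-1.56 to -0.67). Of these 5 intervals that of Plin4 alone leaves out changes of less than 2-fold, and the flox inputs of Cidec, Lipe and Hilpda held only 21, 30 and 35 reads. Pnpla2, which encodes the lipase that G0S2 inhibits and was likewise named after its value was seen, had a 3' UTR peak with 1569 IP and 587 input reads in flox and 544 IP and 355 input reads in HKO. Its log2 change of enrichment was -0.46 (-0.70 to -0.23) and that of its summed input -1.04 (-1.21 to -0.87), so the input of the lipase and of its inhibitor G0s2 was lower in HKO for both.

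**Figure D5:**
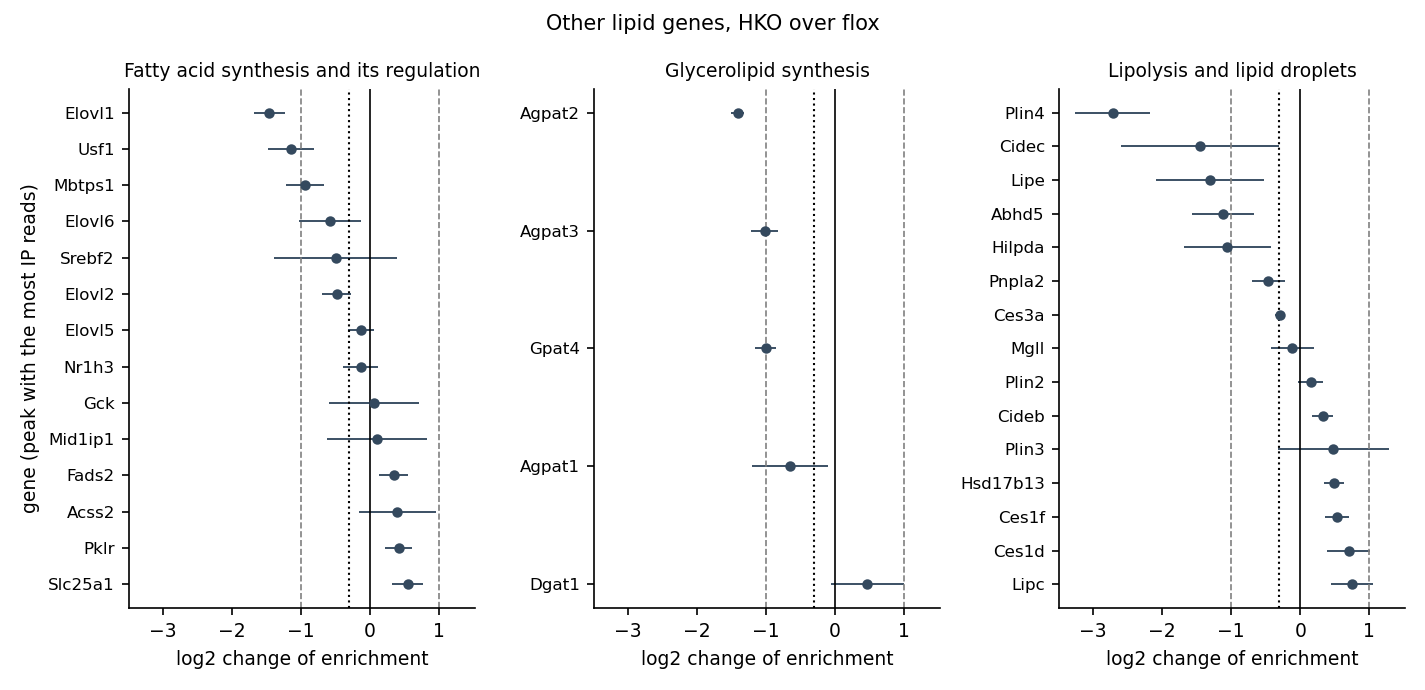
Log2 change of enrichment (HKO over flox) of the peak with the most IP reads for the other genes of lipid metabolism that had a peak, in 3 lists. Bars are 95% counting intervals, dashed lines mark 2-fold, the solid line 0 and the dotted line the median of all genes (-0.30). Of the 5 glycerolipid synthesis genes 3 reach the lower 2-fold line, and no gene of the 3 lists lies beyond the upper one.

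Cell type markers were compared in the input of the same pools. Hepatocyte markers (9 of 12 with a peak) summed to 11374 RPM in flox and 10186 in HKO, with 7 lower and 2 higher. Kupffer cell and macrophage markers (8 of 9) summed to 274 and 465 RPM, all 8 higher in HKO, while endothelial markers (7 of 9) summed to 131 and 101 RPM. Stellate cell markers (6 of 9) summed to 35.6 and 48.4 RPM, cholangiocyte markers (2 of 6) to 13.02 and 35.6 RPM, and of 8 lymphocyte markers 1 had a peak. Of 6 adipocyte markers only Fabp4, which macrophages and endothelium also express, had a peak, with 9.22 RPM in flox and 7.62 in HKO, and Adipoq, Lep, Retn, Cfd and Plin1 had none. The immediate-early genes Egr1, Jun, Fos, Myc and Atf3, chosen after their values were seen, had log2 input changes from 2.64 to 6.14, all upward in HKO. The part of these differences between the pools in the values of the lipogenic genes was not tested.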

How the data were processed

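m6A immunoprecipitated (IP) and input RNA from livers of Mettl3flox/flox (flox) and HKO mice gave 4 libraries, 1 per genotype and fraction, each pooled over mice. Reads were aligned to GRCm38 with BWA 0.7.12-r1039, per the submitters' processing notes, which also list MACS2 2.1.0, HOMER and FastQC, while the methods of the study name exomePeak as peak caller, so the sources differ. Strand handling and duplicate removal are not given in the sources used here. BWA does not split reads over introns, which can thin reads at exon junctions.

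The authors deposited raw read counts for each merged peak. Their deposited RPM is the count plus 1 per 1000000 reads of the library. Their deposited fold enrichment divides IP by input RPM within a genotype. The log2 column deposited by the authors holds their change of enrichment between genotypes and was not used. Among columns of per-sample values, 0 were left unused.

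The 14395 table rows were reduced to 12815 distinct peaks. Library totals were recovered from counts and RPM. Enrichment, its change and 95% counting intervals (normal on the log2 scale, from the reads plus 1) were computed for each peak. They cover counting error only, and PCR copies make them too narrow. A change was counted at 2-fold. There is 1 library per group, so no test was run across peaks. The median counting SE of a log2 change was 0.15 over the 17 peaks (0.04 to 0.57) and 0.28 over all peaks. Peaks were placed on protein-coding GENCODE vM21 transcripts by the middle of their exonic part, with a window of 200 nt from the transcript start and around the stop codon, preferring the principal isoform among those with at least 90% of the best overlap. Input of a gene was summed over its peaks. Coordinates are as in the table, and whether it counts from 0 or 1 is not stated. All 10 genes were named with every peak, and from each of the 3 other lists the 4 genes with the most IP reads in their strongest peak. The members and lists were chosen with earlier results of these data known. Alternatives were other sizes of change, scalings, added counts, read minimums, windows and motifs, and peaks without another gene. Intervals were tested on simulated data. Tools were Python 3.11.15, numpy 2.4.6, pandas 2.3.3, scipy 1.17.1 and matplotlib 3.10.9.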

Additional observations from a re-analysis of the deposited data

How the results depend on the processing

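The count of lower peaks stayed at 3 with a 1.5-fold size, with intervals that leave out 0, with 5 reads added, with at least 50 reads in each input, without peaks that overlap another gene and under both centrings, was 2 when scaled by reads in peaks, and was 0 at 3-fold. The count of higher peaks was 1 and became 5 at 1.5-fold, 0 at 3-fold, 3 when scaled by reads in peaks, and 0 without peaks that overlap another gene, which leaves out G0s2. These follow from the size used, from the peaks left out, and from a shift of every change by 0.27 on the log2 scale. With a window of 100 nt, 1 peak in place of 2 lay at a transcript start. With DRACH in place of GGACT, 15 of 16 peaks held the motif in place of 4. In the other lipid lists 10 genes were 2-fold lower and 12 were 1.5-fold lower, while 0 genes were 2-fold higher and 2 were 1.5-fold higher. No other scaling is given for these lists, and genes close to the 2-fold line, such as Agpat3 and Gpat4, depend on it. The median log2 change over the 17 peaks was 0.45 when scaled by reads in peaks, 0.22 when centred on the median of all peaks, 0.29 with at least 50 input reads, -0.01 with 1 peak per gene and -0.28 when centred on peaks at transcript starts, an alternative chosen after seeing the data. The changes of Fasn and of both Insig1 peaks, all near 0, turned positive under both of the first scalings, and those of Mlxipl CDS 1 and Lpin1 CDS 1 turned negative under the last. Scaling by reads in peaks moved 7 of the 17 single changes outside their counting interval. The input of G0s2 and Lpin2 has no value without peaks that overlap another gene. No paired analysis was possible because each genotype has 1 library per fraction. Depth limits the peaks of Insig2 (10 flox input reads) and Fasn (26), and among the other lipid genes those of Cidec (21), Lipe (30) and Hilpda (35).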
